A study of Mus musculus with 45 samples.

Results

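The 6 gene rows described here are the microRNA precursor genes Mir132 and Mir212 and the microRNA host transcripts Mir22hg, Mir124a-1hg, Mir9-3hg and Mir99ahg. Their identifiers are ENSMUSG00000065537, ENSMUSG00000065590, ENSMUSG00000085148, ENSMUSG00000097545, ENSMUSG00000097023 and ENSMUSG00000090386, in that order. They were taken by their gene symbols from 54532 gene rows of one count table, and all 6 were found and had reads in every library. The RNA came from cultures of hippocampal neurons of newborn C57BL/6N mice, labelled as treated on day in vitro 10 or 11 (day 11 in the methods for RNA-seq), after the mitotic inhibitor AraC had been added on day 3. Each of 9 conditions had 5 libraries, 1 from each of the culture preparations 1, 3, 6, 7 and 8, and the total of counted reads ranged from 11316580 to 81129276 per library. Nothing was transfected or deleted in any group, and the cultures hold all cells that survive in them, so that fewer cells of a type and less RNA per cell cannot be told apart.

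The untreated cultures are called control. Bicuculline (Bic, 50 µM), which blocks GABA type A receptors and so lets the network fire bursts of action potentials, was given for 0.5, 1 or 2 h. In the short protocol (SP), 0.5 h of Bic was followed by a further 0.5 h in which tetrodotoxin (TTX, 1 µM), a blocker of action potentials, was added alone or together with the glutamate receptor agonist NMDA (30 µM). The long protocol (LP) had 1 h of Bic before the addition and 1 h after it, and the addition was TTX, TTX/NMDA or TBOA (50 µM), which blocks the uptake of glutamate. Bic stayed in the medium throughout. The passive effect compares TTX with Bic of the same total duration, the active effect compares TTX/NMDA with TTX, the total effect compares TTX/NMDA with Bic, and the spillover effect compares TBOA with 2 h Bic. These comparisons ask what happens to activity-regulated transcripts when firing simply stops, and what is added when NMDA receptors outside or inside synapses are activated in the bath.

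A microRNA is cut out of a long primary transcript in 2 steps, first in the nucleus by Drosha and DGCR8, which release a hairpin, and then in the cytoplasm by Dicer. The mature strand of about 22 bases guides Argonaute proteins to messenger RNAs, chiefly through its seed, bases 2 to 8. The cluster of miR-212 and miR-132 is a classical target of the transcription factor CREB in neurons and is switched on by synaptic activity and by BDNF. The hosts of miR-124 and miR-9 are known for roles in neuronal identity and in neural progenitors, miR-22 is found in many tissues, and Mir99ahg is the long host of the cluster of miR-99a, let-7c and miR-125b. Mature microRNAs carry no poly-A tail and are too short for these libraries, so that every value below is a count of precursor or host RNA and none is a level of a mature microRNA.

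The sequences below are RefSeq's for the build GRCm38.p6, with the seed in capitals, and are shown because they are what the 6 rows encode. The reference held the mature strands of 7 hairpins of 5 members, and miR-124 is named only. The main strands of Mir132 and Mir212 share the seed AACAGUC, and no other strand among these 14 had a seed in common. They are identical at 17 of 22 bases and differ by A10C, C14U, U17C, U20C and G22A (miR-132-3p first, counted from its 5′ end).
miR-132-3p: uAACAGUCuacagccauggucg
miR-212-3p: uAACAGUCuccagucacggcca
miR-132-5p: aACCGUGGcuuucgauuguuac
miR-212-5p: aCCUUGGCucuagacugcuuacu
miR-22-3p: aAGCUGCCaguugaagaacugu
miR-9-5p: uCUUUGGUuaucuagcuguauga
miR-99a-5p: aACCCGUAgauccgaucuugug
let-7c-5p: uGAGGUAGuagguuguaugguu
miR-125b-5p: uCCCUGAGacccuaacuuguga

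The rows Mir132 and Mir212 count reads on the hairpins themselves, which are printed here with both mature strands in capitals because these are the windows in which the reads fell. Both lie on the plus strand of chromosome 11, Mir212 at chr11:75173388-75173478 and Mir132 at chr11:75173682-75173747, 203 bases apart. Both are in intron 1 (1380 bases) of the non-coding gene 1700016P03Rik (ENSMUSG00000085609, chr11:75172560-75177633), which is called their host here from that position alone, so that reads on them would be reads of intron RNA of this gene. The host's own row counts its 3 exons, 863 bases in all.
Mir132: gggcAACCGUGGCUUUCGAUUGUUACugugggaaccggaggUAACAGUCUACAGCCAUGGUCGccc
Mir212: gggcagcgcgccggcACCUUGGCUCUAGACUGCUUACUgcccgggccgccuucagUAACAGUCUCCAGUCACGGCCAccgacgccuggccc

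**Figure D1:**
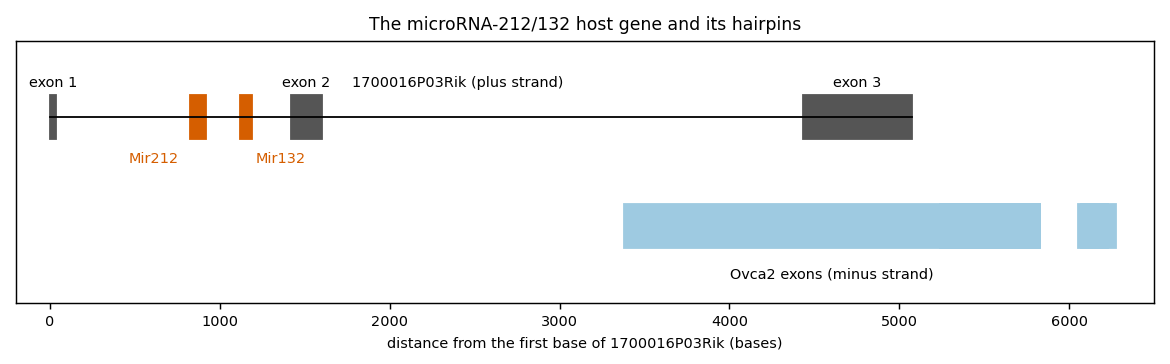
Map of the host gene 1700016P03Rik (grey exons, plus strand), the hairpins Mir212 and Mir132 in its first intron (orange) and the exons of Ovca2 on the minus strand (blue), drawn to scale in bases from the first base of the host. The hairpins begin 828 and 1122 bases from the start, and exon 3 of the host, 641 bases long, lies wholly opposite an exon of Ovca2.

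The other 4 members are spliced host transcripts on the plus strand. Mir22hg (chr11:75461539-75466676) carries its hairpin inside an exon, which it shares with transcripts of the coding gene Tlcd2, and 206 of its 1924 exon bases belong to another gene on the same strand as well. Reads on such bases were not counted, and the hairpin row Mir22 had 0 reads in all 45 libraries. Mir124a-1hg (chr14:64587331-64593961) also holds its hairpin in an exon, and the rows Mir124a-1 and Mir3078 likewise had 0 reads. In Mir9-3hg (chr7:79500026-79534403) and Mir99ahg (chr16:77236317-77773427, with 14303 exon bases in 17 transcripts) the hairpins are intronic. Their hairpin rows held few reads, at most 4 in a library for Mir9-3, 11 for Mir99a, 3 for Mirlet7c-1 and 0 for Mir125b-2, too few to follow.

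Mir132 and Mir212 were called higher at every time of Bic, and Mir22hg after 2 h. In the controls Mir132 had 3, 6, 10, 35 and 3 reads in preparations 1, 3, 6, 7 and 8, which is 0.261, 0.272, 0.343, 0.70 and 0.156 CPM (counts scaled by library size and TMM). After 0.5 h of Bic it stood at 1.92, 2.65, 2.82, 2.31 and 2.51 CPM. After 1 h it was at 4.14, 3.32, 2.90, 3.73 and 4.40 CPM. Every library with Bic was above every control library, and preparation 7 was the highest control. After 2 h the level was 9.63, 5.60, 7.93, 6.38 and 8.87 CPM, above all libraries of the earlier times.

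Tested with edgeR, Mir132 was 5.99-fold higher than control after 0.5 h (log2 fold change 2.58 ± 0.27, SE, adjusted p = 4.79e-10), 8.86-fold after 1 h (3.15 ± 0.25, adjusted p = 1.26e-12) and 18.2-fold after 2 h (4.19 ± 0.23, adjusted p = 2.51e-16). Mir212, from the same intron, was 7.66-fold higher after 0.5 h (2.94 ± 0.27, adjusted p = 2.81e-12), 10.1-fold after 1 h (3.34 ± 0.26, adjusted p = 9.85e-13) and 21-fold after 2 h (4.39 ± 0.23, adjusted p = 4.56e-17). Mir212 stood at 0.435, 0.227, 0.343, 0.680 and 0.104 CPM in the controls and at 10.6, 6.61, 8.19, 8.09 and 10.3 CPM after 2 h. Both rose in 5 of 5 preparations at each time. These folds rest on few control reads, and without preparation 7 they were larger, 3.20, 3.74 and 4.86 on the log2 scale for Mir132 after 0.5, 1 and 2 h and 5.01 for Mir212 after 2 h.

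Of the 6 members, 2 were called higher after 0.5 h, 2 after 1 h and 3 after 2 h, where 0.289%, 0.965% and 4.24% of all genes tested were called higher. None was called lower, as were 0.0%, 0.195% and 4.78% of all genes. The third member after 2 h was Mir22hg. Its libraries read 21, 29.3, 23.9, 32.4 and 23.1 CPM in the control and 33.2, 30.0, 28.9, 35.6 and 41.1 CPM after 2 h, and the groups overlapped although each preparation was higher with Bic (log2 fold change 0.36 ± 0.11, adjusted p = 0.023). Without preparation 1 or 8 the call was lost (adjusted p = 0.12 and 0.17), as it was over genes passing filterByExpr (adjusted p = 0.055). Mir124a-1hg and Mir99ahg were not called against control at any time of Bic, with log2 fold changes of 0.23 ± 0.11 and 0.22 ± 0.14 after 2 h, and neither was Mir9-3hg at 0.16 ± 0.10, which passed the test only when the preparation was a block in the fit (0.18, adjusted p = 0.045).

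The rise of the cluster went on between 1 and 2 h. From 1 to 2 h Mir132 rose 2.09-fold (log2 fold change 1.07 ± 0.14, adjusted p = 1.91e-06) and Mir212 2.12-fold (1.09 ± 0.15, adjusted p = 1.63e-06), each in 5 of 5 preparations, and the libraries did not overlap. Between 0.5 and 1 h neither was called (0.57 ± 0.17, adjusted p = 0.16, and 0.39 ± 0.17, adjusted p = 0.81), where 0.634% of all genes were called higher and 0.043% lower. Leaving out preparation 6, Mir132 passed there too (0.71, adjusted p = 0.039). Mir22hg also rose from 1 to 2 h, by 0.29 ± 0.09 (adjusted p = 0.039, not called without preparation 1 or 8, adjusted p = 0.19 and 0.095, with filterByExpr, 0.073, or in a fit over all 45 libraries, 0.14), which made 3 members higher against 2.53% of all genes, and 0 lower against 2.8%. With the preparation as a block, Mir124a-1hg (0.25, adjusted p = 0.040) and Mir9-3hg (0.17, adjusted p = 0.015) were called higher as well.

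**Figure D2:**
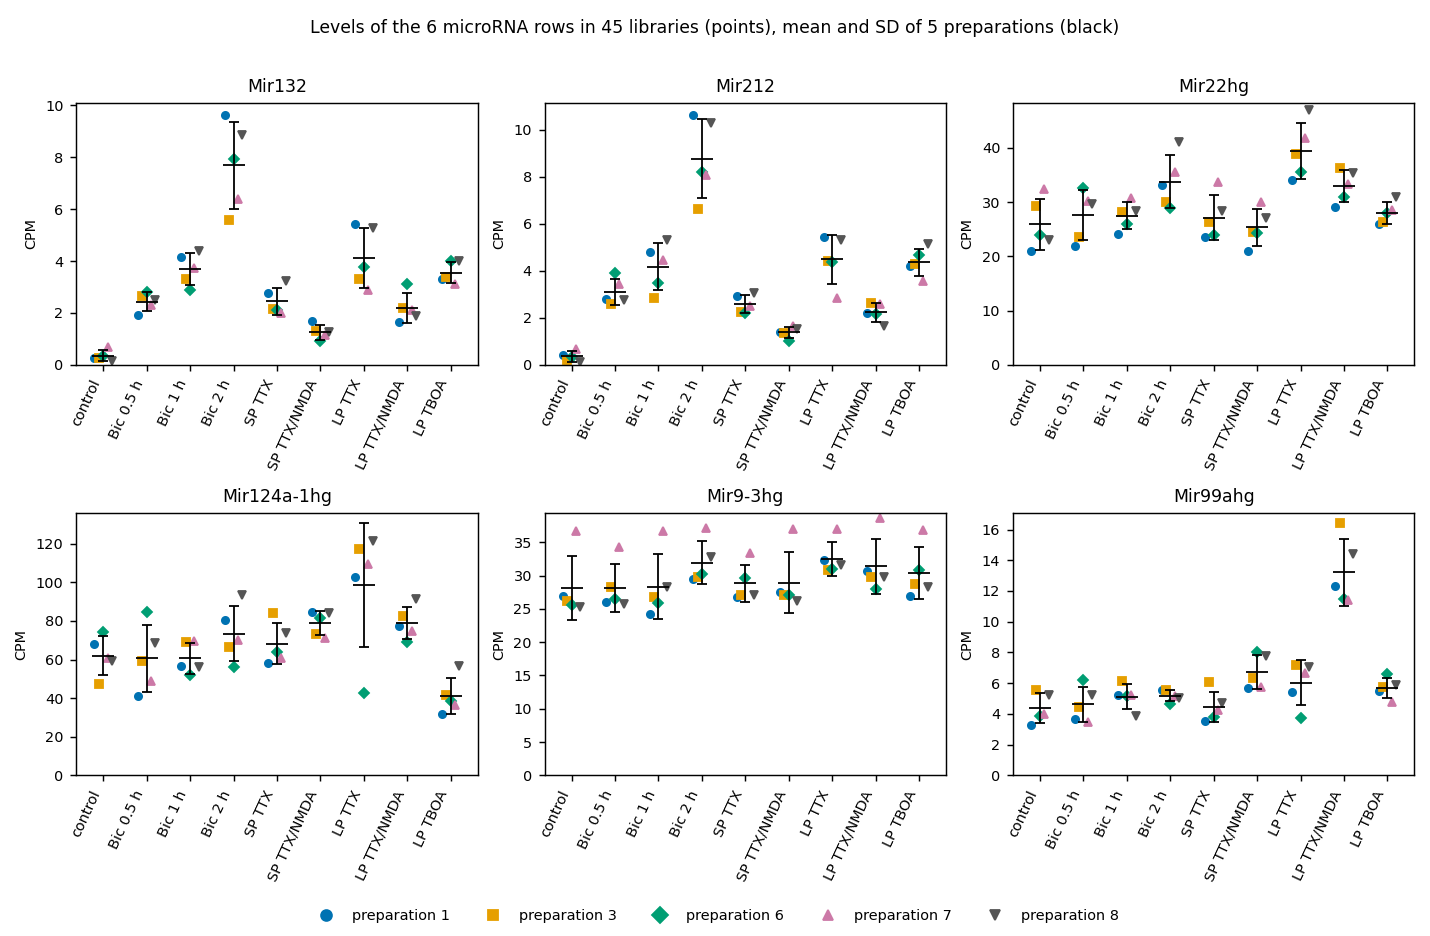
Level of each of the 6 members in CPM (vertical axes, starting at 0) in the 9 conditions, with 1 point per library, coloured by culture preparation, and the mean and SD of 5 preparations in black. Mir132 and Mir212 are lowest in the control and highest after 2 h Bic, Mir99ahg stands highest with LP TTX/NMDA (11.4 to 16.4 CPM), and preparation 7 is the highest Mir9-3hg library in every condition.

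When action potentials were blocked, the level of the 2 hairpins fell below that of uninterrupted Bic. In the LP, Mir132 stood at 5.41, 3.32, 3.77, 2.87 and 5.28 CPM with TTX, all 5 below the lowest library of 2 h Bic. The passive effect was 1.89-fold lower for Mir132 (log2 fold change −0.92 ± 0.16, adjusted p = 0.00027) and 1.98-fold lower for Mir212 (−0.99 ± 0.15, adjusted p = 3.21e-05), each in 5 of 5 preparations, and these were the members called, where 3.03% of all genes were higher and 1.62% lower. The level with TTX was not called different from that of 1 h Bic, the moment at which TTX was added (0.15 ± 0.17 and 0.10 ± 0.17). In the SP the passive effect did not pass the test, with −0.56 ± 0.16 for Mir132 (adjusted p = 0.26) and −0.66 ± 0.16 for Mir212 (adjusted p = 0.069), and 0.0157% of all genes were called higher and 0.252% lower. Both were lower with TTX in 5 of 5 preparations, and both were called with the preparation as a block (−0.59, adjusted p = 0.030, and −0.68, adjusted p = 0.012). The difference between the passive effects of LP and SP was not called for any member, where 0.187% of all genes were called higher and 0.0699% lower in the LP.

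NMDA lowered the hairpins further. In the LP, Mir132 was at 1.66, 2.17, 3.13, 2.10 and 1.88 CPM with TTX/NMDA, lower than TTX alone in each preparation although the groups overlapped by 1 library. The active effect was 1.94-fold lower for Mir132 (log2 fold change −0.95 ± 0.19, adjusted p = 0.00027) and 1.99-fold lower for Mir212 (−0.99 ± 0.17, adjusted p = 6.58e-05). Mir212 was at 5.45, 4.41, 4.39, 2.84 and 5.33 CPM with LP TTX and at 2.19, 2.65, 2.16, 2.59 and 1.63 CPM with LP TTX/NMDA, without overlap. In the SP, Mir132 stood at 2.76, 2.17, 2.10, 1.99 and 3.22 CPM with TTX and at 1.67, 1.30, 0.907, 1.14 and 1.25 CPM with TTX/NMDA. There the active effect was 1.98-fold lower for Mir132 (−0.99 ± 0.19, adjusted p = 0.00068) and 1.87-fold lower for Mir212 (−0.90 ± 0.17, adjusted p = 0.00078), and no library of TTX/NMDA reached one of TTX. The active effects of the 2 protocols were not called different (0.05 ± 0.27 and −0.08 ± 0.25), nor were those of any other member, where 0.722% of all genes were called higher in the LP and 1.85% lower.

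The total effect took both steps together. Against Bic of the same duration, Mir132 was 2.92-fold lower in the SP (−1.54 ± 0.18, adjusted p = 1.25e-07) and 3.65-fold lower in the LP (−1.87 ± 0.16, adjusted p = 6.58e-11). Mir212 was 2.93-fold lower in the SP (−1.55 ± 0.18, adjusted p = 1.28e-07) and 3.92-fold lower in the LP (−1.97 ± 0.15, adjusted p = 2.83e-12). In both protocols the groups did not overlap. The level was still 5.19-fold (Mir132, adjusted p = 2.88e-08, log2 fold change 2.38, and 2.98 without preparation 7) and 5.53-fold (Mir212, adjusted p = 1.06e-08) above the control in the LP, and below that of 1 h Bic (−0.79 ± 0.17 for Mir132, adjusted p = 0.00060, and −0.88 ± 0.18 for Mir212, adjusted p = 0.00017). The 2 hairpins made up all members lower in the SP and LP total effects and in the SP active effect, in which 3.41%, 11.1% and 3.32% of all genes were called lower.

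TBOA gave a fall of the same order without TTX. With it Mir132 was at 3.30, 3.39, 3.98, 3.12 and 3.98 CPM, and all 5 libraries were below those of 2 h Bic. The spillover effect was 2.15-fold lower for Mir132 (−1.11 ± 0.14, adjusted p = 4.32e-06) and 1.98-fold lower for Mir212 (−0.99 ± 0.13, adjusted p = 9.71e-06). Together with Mir124a-1hg, 3 of 6 members were lower, where 0.549% of all genes were, and 0 members were higher, against 0.0536%.

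Expressed per preparation as the part of the Bic rise that was left, Mir132 kept 62.0 ± 11.6% with SP TTX and 26.5 ± 8.9% with SP TTX/NMDA (SD, n = 5). In the LP, TTX left 50.9 ± 8.9%, TTX/NMDA left 26.4 ± 9.6% and TBOA left 45.1 ± 9.4%. Mir212 kept 60.0 ± 10.5% and 27.9 ± 8.5% in the SP, and 49.3 ± 13%, 23.8 ± 9.0% and 48.8 ± 11.1% in the LP. Less of the rise was left with TTX/NMDA than with TTX alone in either protocol, and TBOA stood near TTX.

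The 2 hairpins had like shares of the reads in all conditions. Over all 45 libraries they had 4227 (Mir132) and 4790 (Mir212) reads, and Mir132 made up 46.9% of the sum. The mean share per condition ran from 44.1 ± 4.7% after 0.5 h Bic to 50.6 ± 8.3% in the control (SD, n = 5), with single libraries between 37.5% and 60.0%. None of 15 comparisons of the share was called in an exact two-sided permutation test of 5 against 5 libraries, which cannot give less than p = 0.0079, and the smallest adjusted p was 0.86. A difference in 1 comparison alone could not have passed after adjustment over 15, so the tests do not show that the share stayed the same. The shares rest on as few as 5 reads of both hairpins in a control library, so that a shift of a few points was not detectable there.

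The host gene of the 2 hairpins, 1700016P03Rik, is no member by symbol and was looked at after the annotation and the values had been seen, because the annotation places both hairpins in its first intron. Its exon reads also rose with Bic, with a step from 0.5 to 1 h that was called (0.66 ± 0.10, adjusted p = 3.61e-06) and one from 1 to 2 h of 0.61 ± 0.08 (adjusted p = 2.38e-06). They stood at 3.18 to 4.10 CPM in the control and at 45.5 to 68.7 CPM after 2 h, 15.7-fold higher (log2 fold change 3.97 ± 0.12, adjusted p = 2.93e-24). With LP TTX they fell to 27.3, 25.4, 22.5, 20.1 and 27.4 CPM, 2.34-fold below 2 h Bic (−1.23 ± 0.09, adjusted p = 6.19e-11), where the hairpins were lower too. Against 1 h Bic, where neither hairpin was called, the host was lower with LP TTX (−0.61 ± 0.08, adjusted p = 7.59e-07). Its SP passive effect was also called (−0.91 ± 0.08, adjusted p = 4.52e-10), while those of the hairpins were not.

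With NMDA the exons and the intronic hairpins of this gene went in opposite directions. In LP TTX/NMDA the host exons were at 78.2, 89.0, 77.1, 72.8 and 80.4 CPM, above every other library of the series. This was 3.23-fold above TTX (active effect 1.69 ± 0.08, adjusted p = 2.81e-15) and 1.38-fold above 2 h Bic (total effect 0.47 ± 0.09, adjusted p = 7.07e-05), in 5 of 5 preparations each, where Mir132 and Mir212 fell. In the SP the host exons were 1.29-fold higher with TTX/NMDA than with TTX (0.37 ± 0.10, adjusted p = 0.022) and remained below 1 h Bic (−0.53 ± 0.09, adjusted p = 9.36e-05). The call over TTX was lost without preparation 7 (0.23, adjusted p = 0.26), with filterByExpr (adjusted p = 0.053) and in a fit over all 45 libraries (adjusted p = 0.053). The active effect on the host was larger in the LP than in the SP by 1.34 ± 0.14 on the log2 scale (adjusted p = 1.08e-08), and the total effect by 1.00 ± 0.13 (adjusted p = 5.76e-06). With TBOA the host was not called (−0.33 ± 0.09, adjusted p = 0.091), but was without preparation 3, 7 or 8 (adjusted p = 0.0014, 0.049 and 0.00018).

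The ratio of hairpin to host reads within a library does not depend on the scaling between libraries. After 2 h Bic there were 29.5, 26.9, 27.1, 29.4 and 30.7 hairpin reads (Mir132 plus Mir212) per 100 host exon reads. With LP TTX there were 39.7, 30.5, 36.3, 28.3 and 38.7. With LP TTX/NMDA there were 4.93, 5.41, 6.86, 6.44 and 4.37, the lowest libraries of all conditions. The values are not corrected for length and are meant only for comparison between conditions.

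In the exact two-sided permutation test of 5 against 5 libraries, the difference in log2 ratio between TTX/NMDA and TTX was −2.64 in the LP and −1.30 in the SP, and between TBOA and 2 h Bic it was −0.69. Each of these had an exact permutation p = 0.0079, the smallest such a test can give, and an adjusted p of 0.013 over 15 comparisons, and each held in 5 of 5 preparations. The passive effects left the ratio uncalled, at 0.26 higher in the LP (adjusted p = 0.087, higher in 4 of 5 preparations) and 0.28 higher in the SP (adjusted p = 0.11, higher in 5 of 5). Against 1 h Bic, the time at which TTX was added, the ratio with LP TTX was called higher, by 0.72 (adjusted p = 0.013, 5 of 5 preparations). This test does not use the pairing of the preparations. From 1 to 2 h Bic the ratio rose by 0.46 (adjusted p = 0.013).

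Exon 3, which holds 641 of the 863 exon bases of the host, lies opposite the coding gene Ovca2 on the minus strand, and the reads were counted by strand. Ovca2 rose in the same comparison, from 4.19 to 4.90 CPM with LP TTX to 6.52 to 10.1 CPM with LP TTX/NMDA (active effect 0.89 ± 0.12, adjusted p = 2.22e-06). In the SP active effect it was at 0.33 ± 0.12 and not called (adjusted p = 0.16), and its level with LP TTX/NMDA overlapped the control's 6.08 to 8.18 CPM. Its part in the rise of the host was not tested.

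**Figure D3:**
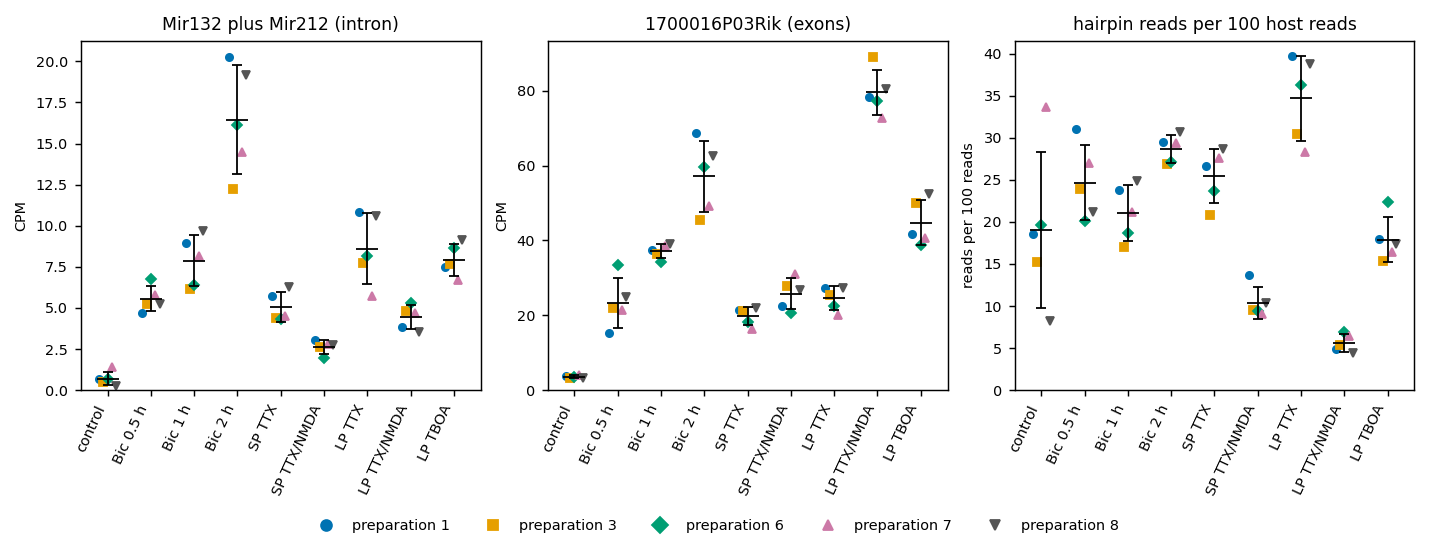
Sum of Mir132 and Mir212 (left, CPM), exon reads of their host 1700016P03Rik (middle, CPM) and hairpin reads per 100 host reads (right) in the 9 conditions, with 1 point per library and the mean and SD of 5 preparations in black. Hairpins and host both rise with Bic, whereas with LP TTX/NMDA the host is at its highest (72.8 to 89.0 CPM) and the ratio at its lowest (4.37 to 6.86 per 100).

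Mir99ahg was called with NMDA but at no time of Bic alone. It stood between 3.31 and 7.21 CPM in all 30 libraries without NMDA or TBOA. With LP TTX/NMDA it was at 12.3, 16.4, 11.5, 11.4 and 14.4 CPM, above all other libraries of the series. It was 2.15-fold above TTX (active effect 1.11 ± 0.14, adjusted p = 3.00e-07), 2.54-fold above 2 h Bic (total effect 1.35 ± 0.12, adjusted p = 3.56e-11) and 3.00-fold above the control (1.58 ± 0.14, adjusted p = 3.11e-11), each in 5 of 5 preparations. It was the member called higher in the LP active and total effects, where 11.6% and 11.7% of all genes were.

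In the SP the step was smaller. With TTX/NMDA Mir99ahg stood at 5.69, 6.33, 8.05, 5.75 and 7.76 CPM against 3.54, 6.05, 3.81, 4.24 and 4.71 CPM with TTX, and the groups overlapped by their extremes. The active effect was 1.51-fold (0.59 ± 0.14, adjusted p = 0.0085, and 0.46, adjusted p = 0.068 without preparation 6), where 0.956% of all genes were called higher. The SP total effect was not called (0.38 ± 0.13, adjusted p = 0.12) except with the preparation as a block (0.38, adjusted p = 0.029). The total effect was larger in the LP than in the SP by 0.97 ± 0.18 (adjusted p = 0.00092), 1 of 6 members higher against 0.42% of all genes, and 0 lower against 1.08%. For the active effect the same difference was 0.53 ± 0.21 (adjusted p = 0.21, with the block 0.50, adjusted p = 0.042).

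Markers of other cell types moved with Mir99ahg in the LP. All 6 astrocyte markers (Gfap, Aqp4, Slc1a3, Aldh1l1, S100b and Aldoc) were called higher in the active effect, with Slc1a3 at 0.90 ± 0.13 (adjusted p = 4.6e-06) and Gfap at 0.80 ± 0.19 (adjusted p = 0.0019). Their summed level ran from 433 to 912 CPM with LP TTX and from 780 to 1632 CPM with LP TTX/NMDA. All 4 markers of dividing or progenitor cells and 4 of 6 oligodendrocyte lineage markers were higher there too, as were 1 of 5 microglia and 1 of 3 endothelium markers, while 3 of 8 neuronal markers were lower. In the SP active effect 0 of 6 astrocyte markers were called, where Mir99ahg was. Microglia and endothelium markers summed to 2.85 to 5.40 CPM and 0.89 to 3.00 CPM over the 45 libraries, with P2ry12, Itgam and Cldn5 at 0 in some. The part of these cells in the level of Mir99ahg was not tested.

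Mir124a-1hg, the host of the neuronal miR-124, was lowest with TBOA. There it read 32, 41.8, 38.7, 36.2 and 56.6 CPM against 80.5, 66.3, 56.1, 70.1 and 93.5 CPM after 2 h Bic, and only preparation 8 reached into the range of the Bic libraries. The spillover effect was 1.77-fold lower (−0.82 ± 0.11, adjusted p = 2.79e-05), in 5 of 5 preparations. The mean level was 41.1 ± 9.4 CPM with TBOA and 62.0 ± 10.03 CPM in the control (SD, n = 5), whose libraries ran from 47.6 to 74.2 CPM and overlapped those of TBOA, and this pair was not tested.

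With LP TTX it reached its highest levels, 103, 117, 109 and 122 CPM in preparations 1, 3, 7 and 8, but 42.8 CPM in preparation 6. The passive effect was 0.43 ± 0.15 with all libraries and not called (adjusted p = 0.12), and 0.53 without preparation 6 (adjusted p = 2.1e-06). The call was also made without preparation 8 (0.46, adjusted p = 0.0016) and with the preparation as a block (0.36, adjusted p = 0.010). The active effect of the LP was likewise −0.33 ± 0.15 (adjusted p = 0.12) with all libraries and −0.50 (adjusted p = 1.3e-05) without preparation 6. Against 1 h Bic, LP TTX was higher by 0.70 ± 0.14 (adjusted p = 0.00058), in 4 of 5 preparations, a call that DESeq2 did not make (adjusted p = 0.054).

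In the SP, TTX/NMDA raised Mir124a-1hg over 1 h Bic by 0.37 ± 0.08 (adjusted p = 0.0019), from 51.9 to 69.4 CPM to 71.1 to 84.7 CPM, in 5 of 5 preparations. It was the 1 member called higher in the SP total effect, among 0.891% of all genes. One fit over all 45 libraries did not call it (adjusted p = 0.24). The single steps were not called, with 0.16 ± 0.09 for the passive and 0.20 ± 0.08 for the active effect. In the LP, TTX/NMDA was above 1 h Bic (0.37 ± 0.08, adjusted p = 0.00067) and the control (0.34 ± 0.10, adjusted p = 0.0086), both lost in a fit over all 45 libraries (adjusted p = 0.082 and 0.12), and the total effect against 2 h Bic was 0.10 ± 0.09 (adjusted p = 0.45).

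Mir22hg changed by less than 1.5-fold in every comparison. It was highest with LP TTX, at 34.1, 38.8, 35.5, 41.8 and 47.0 CPM, 1.43-fold above 1 h Bic (0.52 ± 0.08, adjusted p = 2.13e-05) with no overlap. The passive effect against 2 h Bic was 0.22 ± 0.09 and not called (adjusted p = 0.19), but was higher in 5 of 5 preparations and called with the block (0.21, adjusted p = 0.0036). NMDA lowered it in the LP active effect by 0.27 ± 0.09 on the log2 scale (adjusted p = 0.022, and 0.057 without preparation 7 and 0.073 in a fit over all 45 libraries), so that 3 of 6 members were lower there against 11.8% of all genes. LP TTX/NMDA remained above the control (0.33 ± 0.10, adjusted p = 0.016, and 0.061 without preparation 8) and above 1 h Bic (0.25 ± 0.08, adjusted p = 0.023, not called without preparation 1, 3 or 6 or, with 0.074, in a fit over all 45 libraries). With TBOA it was at −0.26 ± 0.08 (adjusted p = 0.23, with the block 0.041).

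Mir9-3hg was the steady member. Its condition means ran from 28.1 to 32.5 CPM, and no comparison was called, the log2 fold changes lying between −0.07 and 0.19. The preparations differed more than the conditions did, with preparation 7 at 33.4 to 38.6 CPM and the other 4 at 24.2 to 32.8 CPM. With the preparation as a block, small rises were called in LP TTX over 1 h Bic (0.19, adjusted p = 0.027), in LP TTX/NMDA over 1 h Bic (0.16, adjusted p = 0.028) and in LP TTX/NMDA over control (0.17, adjusted p = 0.029), besides those after 2 h Bic given above.

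**Figure D4:**
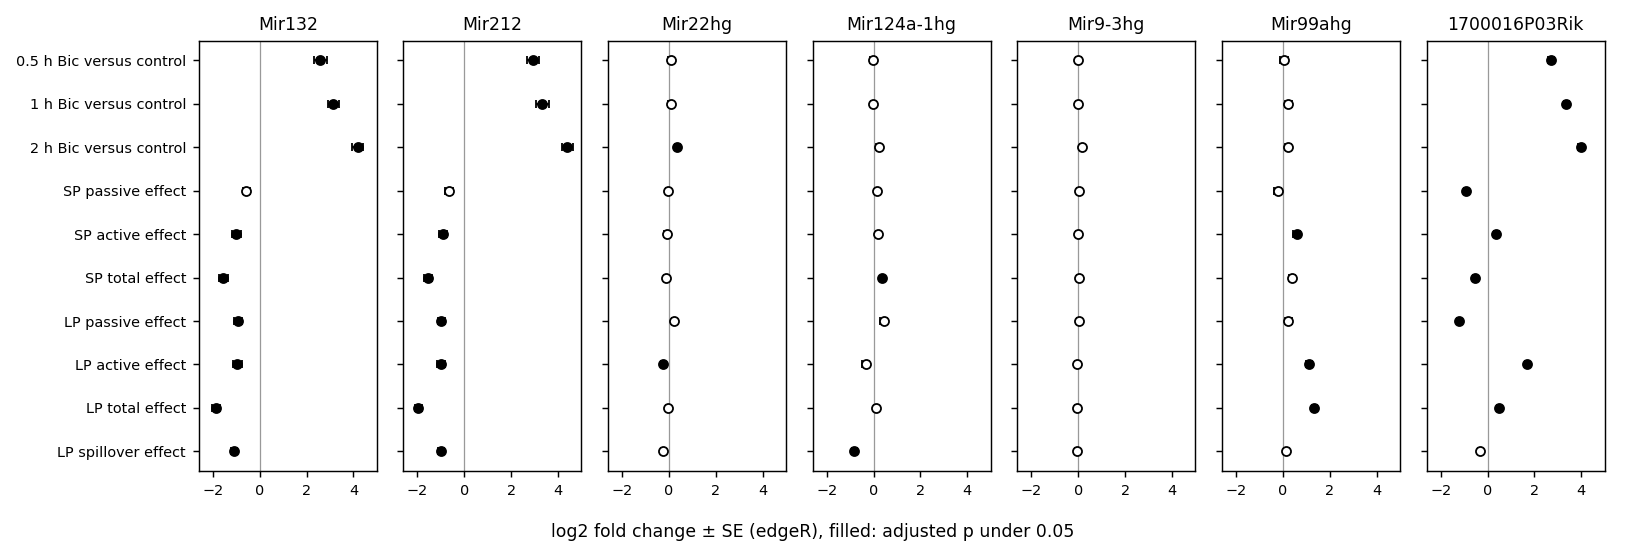
Log2 fold change ± SE of the 6 members and of the host 1700016P03Rik (panels) in 10 comparisons (rows), fitted with edgeR, with filled points where the adjusted p was under 0.05. Mir132 and Mir212 are left of 0 in all passive, active, total and spillover effects, whereas the host is at 1.69 and Mir99ahg at 1.11 in the LP active effect.

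In LP TTX/NMDA against control, 5 of 6 members were higher and 0 lower, against 10.9% and 8.55% of all genes, and in LP TTX/NMDA against 1 h Bic 3 were higher and 2 lower, against 10.9% and 10.2%. In LP TTX against 1 h Bic 2 were higher and 0 lower, against 4.34% and 2.85%. In the LP comparisons with TTX/NMDA the median log2 fold change over all genes was itself 0.11 to 0.12. Comparisons that share a group, such as the passive and total effects, share its libraries.

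The order of the condition means put the control lowest and 2 h Bic highest for both hairpins, and only these ends stood apart from their neighbours. Between them lay, for Mir132, SP TTX/NMDA, LP TTX/NMDA, Bic 0.5 h, SP TTX, LP TBOA, Bic 1 h and LP TTX, and each neighbouring pair overlapped. For Mir99ahg, LP TTX/NMDA alone was apart. For Mir22hg, Mir124a-1hg and Mir9-3hg every neighbouring pair overlapped.

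Across the 9 condition means of log2 CPM, Mir132 and Mir212 correlated at r = 0.997 and each with the host exons at r = 0.75. The genes most like Mir132 and Mir212 among 13592 with a mean of at least 1 CPM were Egfem1 (r = 0.95 for both), Pcdh15 (0.95 and 0.94) and Egr4 (0.94 for both), the last an activity-regulated transcription factor. Most like the host exons were Gadd45g (0.96), Slc22a21 (0.96) and Arl4d (0.95). Most like the others were Etv5, Dlg1 and Gclc for Mir22hg (0.97, 0.95 and 0.95), Gas2l3, Gm26917 and Zfp941 for Mir124a-1hg (0.95, 0.93 and 0.90), Tspan31, Esyt1 and Bub1b for Mir9-3hg (0.99, 0.98 and 0.98) and Atp6v0e, Sag and Adgre1 for Mir99ahg (0.99, 0.98 and 0.98). These are descriptions over 9 points from the same libraries, picked as the highest of many genes.

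The genes that process and use microRNAs changed less than the cluster with Bic. After 2 h Bic 2 of 26 were higher and 0 lower, against 4.24% and 4.78% of all genes, the RNA editing enzyme Adar (0.43 ± 0.09, adjusted p = 0.00063) and the Argonaute gene Ago2 (0.35 ± 0.11, adjusted p = 0.045). In the LP active effect, where 25 were tested, 1 was higher and 11 were lower, against 11.6% and 11.8% of all genes, with Ago1 (−0.59 ± 0.06, adjusted p = 2.9e-08) and Ago2 (−0.64 ± 0.07, adjusted p = 4.9e-08), which bind the mature strand, in front, and with the editing enzymes Adarb1 (−0.48 ± 0.07, adjusted p = 1.7e-06) and Adar (−0.42 ± 0.06, adjusted p = 6.3e-06). Their median was −0.16 beside 0.11 over all genes. In the SP active effect 0 were higher and 3 lower, against 0.956% and 3.32%, and with TBOA 0 were called at all by edgeR. Shares of all genes are over every gene with any read, 32852 in the LP active effect, though only 13592 had a mean of at least 1 CPM. Such shares can run low beside those among well-expressed genes. Astrocyte and neuronal markers also moved in the LP active effect, as given above. The part of those cells in the fall of the listed genes was not tested.

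Of 14 genes described as targets of miR-132 or miR-212, 2 were higher and 2 lower after 2 h Bic, against 4.24% and 4.78% of all genes. They were Btg2, an immediate early gene (3.52 ± 0.11, adjusted p = 1.9e-23), the growth factor gene Hbegf (0.43 ± 0.11, adjusted p = 0.010), the deacetylase gene Sirt1 (−0.50 ± 0.11, adjusted p = 0.0014) and the RasGAP gene Rasa1 (−0.24 ± 0.08, adjusted p = 0.044). In the LP active effect 2 were higher and 6 lower, against 11.6% and 11.8% of all genes, among them Btg2 (2.65 ± 0.12, adjusted p = 5.7e-16), the acetyltransferase gene Ep300 (−0.77 ± 0.06, adjusted p = 1.7e-10) and Arhgap32, also called p250GAP (−0.62 ± 0.07, adjusted p = 3.1e-08). In the SP active effect 0 were higher and 4 lower, against 0.956% and 3.32%. Members of the list were called in both directions, and mature miR-132 and miR-212 were not measured.

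The promoter windows of 3 members were in the reference, each 300 bases long around the start site. The CREB site TGACGTCA was found in 1.79% of 32851 such windows on either strand, and its shorter form TGACG, which the full site contains, in 20.8%. Among the members the full site stood in the window of the first start of Mir9-3hg, with its first base at −51, the short form alone in that of Mir22hg, at −176, and neither in that of Mir99ahg. Windows of 1700016P03Rik and Mir124a-1hg were not analysed here. A match of letters is a description and not a binding site.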

How the data were processed

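RNA of 45 libraries was sequenced after poly-A selection with a strand-specific kit, single-end with 75 cycles. The authors demultiplexed with bcl2fastq (2.20.0.422), aligned with STAR (2.5.4b) to GRCm38 with the annotation of Ensembl release 94, and counted sense-strand reads per gene with featureCounts (1.6.5). They did not count a read with more than one alignment or more than one gene. The deposited values are raw counts, which the authors did not normalize. Symbols and positions came from GENCODE vM21, of the same build, and matched 54409 of 54532 gene IDs, so gene models may differ slightly from those used in counting.

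Differences were tested with edgeR (4.0.16, R 4.3.3) by the quasi-likelihood test on the libraries of the compared conditions, with TMM scaling, on every gene having any read there, and called at a Benjamini-Hochberg adjusted p under 0.05 over all genes tested. The SE is the log2 fold change divided by the square root of the test's F. There were 15 comparisons of 2 conditions and 3 contrasts between protocols. CPM values are scaled over all 45 libraries. Shares and ratios within a library were tested with exact permutation tests and adjusted over 15 comparisons. Named are the 6 members, the 3 genes most like each, and from each list up to 4 genes with the lowest adjusted p, of which 1 is not reported here. The members and lists were chosen with earlier results of these data known, and the host row and its ratio were added after their values had been seen.

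The labels give the culture preparation of each library. After removing each condition's mean, 2 libraries of 1 preparation correlated across genes at r = 0.45 on average and those of different preparations at −0.11, and a fit with the preparation as a block over genes passing filterByExpr is given where it changes a call. The other alternatives were DESeq2 (1.42.0), its size factors (RLE), filterByExpr, 1 fit over all libraries and leaving out each preparation. The fits were tested on simulated data with known changes that were smaller than the folds of the hairpins against control, so that this does not bear on those folds. Mir132 and Mir212 had 3 to 312 and 2 to 324 reads per library, so that their control levels carry a large counting error.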

Additional observations from a re-analysis of the deposited data

Results flagged for a closer look

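Of 99 sets of 5 libraries examined, 9 held a library that stood apart by Dixon's criterion, where chance gives about 1 in 20 for independent sets of normal values. These sets share libraries and preparations, so that no excess over chance can be read from the count. Mir124a-1hg was at 42.8 CPM in preparation 6 with LP TTX, far below the other 4. Mir9-3hg in preparation 7 stood above the rest in the control (36.7 CPM), with SP TTX/NMDA (36.99 CPM), with LP TTX (36.99 CPM) and with LP TTX/NMDA (38.6 CPM). The Mir132 share of both hairpins' reads was 53.8% in preparation 3 after 1 h Bic, above the other 4. The share of the induction left of Mir212 was 42.6% in preparation 3 with SP TTX/NMDA. For Mir22hg, whose rise after 2 h Bic was small, this share was 1349% with LP TTX and 994% with LP TTX/NMDA in preparation 3, where 2 h Bic exceeded the control by least, so that a share of the rise left is of no use for this transcript.

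Among the members and the host 1700016P03Rik, the effects called different between the protocols were those of the host and of Mir99ahg. The active effect of the host was larger in the LP than in the SP by 1.34, and its total effect by 1.00 (log2). The total effect of Mir99ahg was larger in the LP by 0.97. Genes of the other lists were called as well. Examples are the active effects of Mir124-2hg (0.64 higher in the LP, adjusted p = 0.024) and Ago2 (−0.42, adjusted p = 0.015), tested with edgeR. For the host the 2 total effects had opposite signs, −0.53 in the SP and 0.47 in the LP. The cause was not tested for any of these.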

How the results depend on the processing

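No call of a member changed sign under any alternative. Among 108 member results each, size factors (RLE) changed 0 calls, DESeq2 gained 1 and lost 1, filterByExpr lost 2, 1 fit over all 45 libraries lost 6, and the fit with the preparation as a block gained 13 and lost 0. The number of members called moved from 0 to 1 with DESeq2 and to 2 with the block in the SP passive effect, from 2 to 4 with the block in the LP passive effect, from 3 to 5 with the block from 1 to 2 h Bic, from 0 to 1 with the block in the active effect of LP minus SP, from 2 to 1 with DESeq2 in LP TTX against 1 h Bic, and from 5 to 3 with 1 fit over all libraries in LP TTX/NMDA against 1 h Bic. The cause was not tested. Leaving out 1 preparation gave 0 to 1 member called from 0.5 to 1 h Bic, in the SP passive effect and in the active effect of LP minus SP. It gave 2 to 4 members for 2 h Bic against control, from 1 to 2 h Bic and in the SP active effect. The range was 2 to 3 in the LP passive effect, 3 to 5 in the LP active effect, and 4 to 5 for LP TTX/NMDA against control and against 1 h Bic.

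With each preparation left out in turn, the mean difference in the log2 hairpin to host ratio against control lay between 0.28 and 0.70 after 0.5 h, −0.057 and 0.51 after 1 h and 0.44 and 0.96 after 2 h Bic. It passed the exact test (adjusted p = 0.039) without preparation 7 at 0.5 and 2 h. Over the same omissions, the mean difference in the Mir132 share, never called, ranged from −1.84 to 1.10 points for 2 against 1 h Bic, −0.59 to 3.32 for LP TTX and −1.15 to 4.48 for LP TTX/NMDA against 1 h Bic, −4.06 to 0.60 for LP TTX/NMDA against control, −1.57 to 3.36 for LP active, −0.042 to 2.27 for LP passive, −2.69 to 0.27 for SP active, −0.22 to 2.44 for SP passive and −1.96 to 1.25 for SP total. Low reads of the hairpins in the control and counting windows under 100 bases limit the precision of their folds.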

Other observations

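Other microRNA rows were mostly empty. Of 1178 further microRNA genes in the file, 438 had a read, and 7 had a mean of at least 10 reads per library, so that calls among them rest on few reads. After 2 h Bic 5 of 275 tested were called higher and 0 lower, against 4.24% and 4.78% of all genes, led by Mir1938 (log2 fold change 3.83 ± 0.45, adjusted p = 5.7e-08), Mir670 (3.90 ± 0.79, adjusted p = 0.00058), Mir5125 (0.75 ± 0.19, adjusted p = 0.0083) and Mir335 (4.21 ± 1.21, adjusted p = 0.022). Mir1938 fell again with LP TTX (−1.36 ± 0.30, adjusted p = 0.0040). In the LP active effect 7 were higher and 12 lower, against 11.6% and 11.8% of all genes, with Mir670 (2.61 ± 0.47, adjusted p = 9.1e-05) and Mir703 (0.59 ± 0.13, adjusted p = 0.00073) among the higher and Mir23b (−3.70 ± 0.72, adjusted p = 0.00024) and Mir496a (−2.96 ± 0.68, adjusted p = 0.0014) among the lower. Hairpin rows count reads of any transcript across them, and these were not traced to a host.

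Of 6 other rows named as microRNA hosts, 3 were higher after 2 h Bic, against 4.24% of all genes, namely Mir17hg (1.80 ± 0.39, adjusted p = 0.0012), Mir124-2hg (0.45 ± 0.11, adjusted p = 0.0032) and Mir155hg (2.22 ± 0.67, adjusted p = 0.027). Mir124-2hg, the host of another copy of miR-124, differed in pattern from Mir124a-1hg, with 11.3 to 17.2 CPM under LP TTX and 19.3 to 28.4 CPM under LP TTX/NMDA (active effect 0.75 ± 0.11, adjusted p = 2.9e-06).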
